A study of Mus musculus with 8 samples.

Results

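The 10 genes described here mark the macrophages of the embryo and serve complement and scavenging: C1qa, C1qb, C1qc, Mrc1, Adgre1, Cd163, Trem2, Tyrobp, Cd68 and Mpeg1. They were found by matching these symbols, current or older, to the gene names of the array. They were read by 13 probes on 22 of the 59305 non-control spots. All 10 were measured, among 21796 genes with a symbol, and Adgre1 stood on the array under its older name Emr1.

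Macrophages reach the tissues of the embryo early and clear dying cells there. C1qa, C1qb and C1qc encode the chains of C1q, the recognition protein that starts the classical complement pathway and tags debris for uptake. Mrc1 and Cd163 encode scavenger receptors, and Trem2 encodes a lipid-sensing receptor that signals through the adaptor DAP12, the product of Tyrobp. Adgre1 encodes the F4/80 antigen, Cd68 a glycoprotein of late endosomes and lysosomes, and Mpeg1 perforin-2, a pore-forming protein of phagocytes.

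The measurement was a one-colour Agilent array of RNA from CD31-bearing cells. CD31 (PECAM-1), an adhesion protein of endothelium, is also found on platelets and on many blood leukocytes. Such cells were pulled out on magnetic beads, with no second marker, from single mouse embryos whose liver and brain had been removed. Both groups were at stage E12.5 on the C57Bl/6J background and had Gata2 +9.5+/- parents. One group, the Gata2 +9.5 mutant (Gata2+9.5-/-, 4 embryos), carried a mutation of an intronic enhancer of Gata2, a transcription factor gene of blood formation. The other was wild type littermates (4 embryos). Embryos 1 and 2 of each genotype were from litter 1 and embryos 3 and 4 from litter 2. Each litter was hybridised on a slide of its own, so the litter and its slide cannot be told apart.

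Each level below is the log2 processed signal minus the 75th percentile of its array, so that 0 is a signal at that percentile. Levels of different genes were read by different probes and are not set against each other. The 75th percentile ran from 996 to 2481 signal units, and 74.9% to 92.0% of non-control spots were well above background. The number of arrays limits the precision. On the first principal component, which held 58.9% of the variance, wild type 2, wild type 3 and mutant 4 stood apart, with scores of 99.8 to 159 against -128 to 23.2 for the other 5 arrays. Gata2 itself ran from 0.89 to 2.00 in wild type embryos and from -1.27 to -0.15 in mutants, without overlap, a difference of -2.42 (SE 0.39). The adjusted p for Gata2 was 0.0859 in limma, which missed the threshold of 0.05.

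Of the 10 genes, 9 were well above background on all 8 arrays, and Cd163 on 6 of them (not on wild type 1 or mutant 2). Csf1r, the growth factor receptor that sustains macrophages, was well above background on all 8 arrays at levels of 1.97 to 3.97. So was Ptprc, the CD45 gene of blood cells, at -2.57 to 0.049. Pecam1, which encodes CD31, lay at 2.18 to 3.75, and Cdh5, the endothelial cadherin gene, at 3.35 to 5.86. The samples therefore carried endothelial and macrophage transcripts together. In such bulk RNA, fewer macrophages and less of a transcript per macrophage cannot be told apart.

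The largest difference among these genes lay between the litters. All 10 were higher in litter 2 by any amount, where 64.0% of the 40235 features (gene symbols, or single probes without one) were. In limma with genotype in the model, 6 of the 10 were past the threshold of an adjusted p of 0.05 (C1qa, Mrc1, C1qc, Adgre1, C1qb and Tyrobp), all of them higher. Over all features 4.02% were called higher in litter 2 and 0.895% lower, 4.91% in all. The median litter difference of the 10 genes was 1.46, against 0.32 for all features. It was 1.50 between the wild type embryos of the litters and 1.46 between the mutants.

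**Figure D1:**
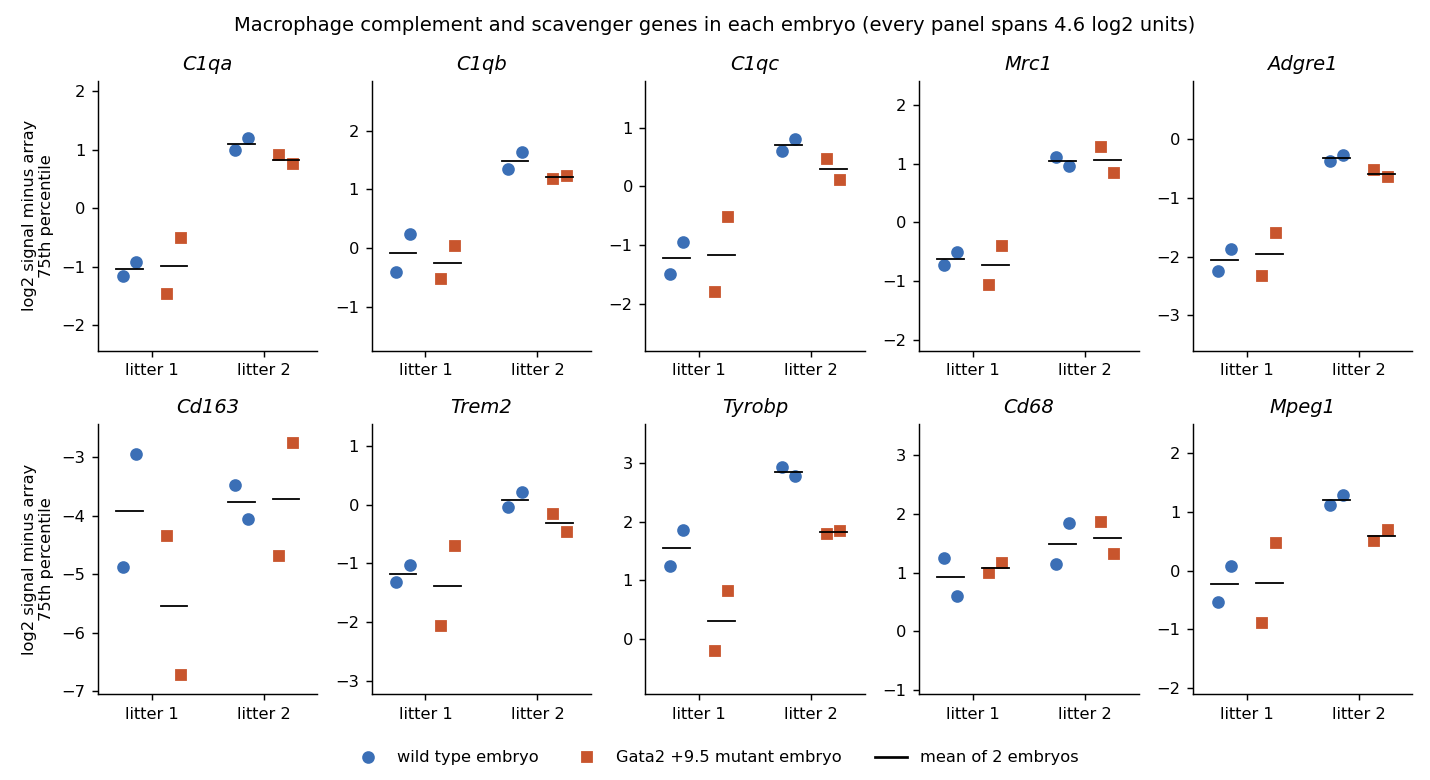
Each point is 1 embryo, the vertical axis is log2 signal minus the 75th percentile of the array, and the bar is the mean of the 2 embryos of a genotype in a litter. C1qa in litter 2 (0.75 to 1.20) lies above C1qa in litter 1 (-1.46 to -0.50) for both genotypes, while Cd163 and Cd68 overlap between litters.

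The C1q genes lie side by side, and their probes fell within 15891 bases of chromosome 4 (mm9). The probes of C1qa and C1qb are shown because they read the coding sequence of chains that were past the litter threshold. C1qa was read at chr4:136452409-136452468 and C1qb at chr4:136436578-136436637, both on the minus strand of mm9.
C1qa probe: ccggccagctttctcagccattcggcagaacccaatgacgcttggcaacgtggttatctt
C1qb probe: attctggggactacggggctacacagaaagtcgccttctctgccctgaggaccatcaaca

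C1qa, the first chain of C1q, had levels of -1.17 and -0.92 in wild type 1 and 2, and -1.46 and -0.50 in mutants 1 and 2. In litter 2 its levels were 0.99 and 1.20 in wild type 3 and 4, and 0.91 and 0.75 in mutants 3 and 4. Every embryo of litter 2 stood above every embryo of litter 1, whatever its genotype. The litter means were -1.01 ± 0.41 and 0.96 ± 0.19 (SD, n = 4 each). The difference of 1.98 (SE 0.30), or 3.93-fold, was past the threshold in limma (adjusted p = 0.0156).

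For C1qb, the second chain, litter 1 gave -0.41 and 0.24 in wild type embryos and -0.53 and 0.038 in mutants. Litter 2 gave 1.34 and 1.63 in wild type embryos, and 1.18 and 1.24 in mutants. The litters again did not overlap, and the difference was 1.51 (SE 0.28; limma adjusted p = 0.0239). C1qc, the remaining chain, was printed on 10 spots per array, whose SD within an array was 0.0447 to 0.120 on the log2 scale. Its levels in litter 1 were -1.50 and -0.95 in wild type embryos, and -1.81 and -0.53 in mutants. In litter 2 they were 0.60 and 0.80 in wild type embryos, and 0.46 and 0.12 in mutants. The litters did not overlap, and C1qc was 1.69 higher in litter 2 (SE 0.35; limma adjusted p = 0.0311).

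Mrc1, the mannose receptor of tissue macrophages, stood at -0.72 and -0.51 in the wild type embryos of litter 1 and at -1.07 and -0.39 in its mutants. The wild type embryos of litter 2 had 1.11 and 0.97, and the mutants 1.29 and 0.85. The genotypes overlapped within each litter and the litters did not overlap. Mrc1 was 1.73 higher in litter 2 (SE 0.28; 3.32-fold; limma adjusted p = 0.0168). Cd163, the scavenger receptor for haemoglobin bound to haptoglobin, was dim. Its levels in embryos 1 to 4 were -4.88, -2.96, -3.48 and -4.06 in wild type, and -4.35, -6.72, -4.69 and -2.76 in mutants. They followed neither litter nor genotype, and the litter difference was 0.98 (SE 0.70; limma adjusted p = 0.371).

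Trem2 had levels of -1.32 and -1.02 in the wild type embryos of litter 1, and -2.07 and -0.71 in the mutants there. The litter 2 levels were -0.041 and 0.22 in wild type, and -0.16 and -0.47 in mutants. The litters did not overlap, but the difference of 1.17 (SE 0.34) missed the threshold in limma (adjusted p = 0.0812). Adgre1 had -2.25 and -1.86 in wild type 1 and 2 and -2.34 and -1.59 in mutants 1 and 2. It had -0.37 and -0.28 in wild type 3 and 4 and -0.52 and -0.65 in mutants 3 and 4. Adgre1 thus separated by litter, by 1.56 (SE 0.28; limma adjusted p = 0.0224). A second Adgre1 probe differed by 1.47 between litters, and was also past the threshold when every probe was a feature (limma adjusted p = 0.0315).

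Mpeg1 ran at -0.53 and 0.079 in wild type 1 and 2, -0.89 and 0.48 in mutants 1 and 2, 1.12 and 1.29 in wild type 3 and 4, and 0.51 and 0.69 in mutants 3 and 4. Litter 2 lay above litter 1, though mutants 2 and 3 were close, and the difference was 1.12 (SE 0.36; limma adjusted p = 0.104). Cd68 gave 1.25, 0.60, 1.15 and 1.85 in wild type embryos 1 to 4, and 1.00, 1.16, 1.87 and 1.32 in mutants. Its litters overlapped, and the difference of 0.54 (SE 0.30) was not past the threshold (limma adjusted p = 0.270). The dimmer second probes gave litter differences of 0.59 for Cd68 and 0.74 for Mpeg1, neither past the threshold when every probe was a feature.

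Counted by overlap, 7 of the 10 genes had all 4 embryos of litter 2 above all 4 of litter 1, where 10.5% of all features did. The exceptions were Cd163, Tyrobp and Cd68. Tyrobp passed the litter test with overlapping litters, since wild type 2 (1.86) stood above mutants 3 and 4 (1.79 and 1.84). With the signal of each array scaled to its median instead of its 75th percentile, 3 of the 10 did not overlap (3.49% of all features). No gene of the 10 was past the threshold under median scaling, and C1qa came closest at a limma adjusted p of 0.0529. That scaling moved the litter median of all features from 0.32 to -0.15. Either scaling shifts all features of an array by the same amount. The median of the 10 genes above that of all features, 1.14 under both, was therefore bound to stay nearly the same.

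The count also depended on which arrays were fitted, and every fit below has fewer arrays. Without wild type 2, wild type 3 and mutant 4, 3 of the 10 genes were past the threshold (C1qa, C1qb and Mrc1), as were 5782 of 40235 features. The median of the 10 genes exceeded that of all features by 1.48 there. Leaving out single arrays gave between 0 and 6 called genes, with 0 without mutant 1, mutant 2 or mutant 3, and 1 without wild type 1. There were 2 without wild type 4 or mutant 4, 4 without wild type 3 and 6 without wild type 2. The calls over all 40235 features moved as well. They numbered 25, 4 and 222 without mutants 1, 2 and 3, and 511 without wild type 1. Without wild type 4 there were 465, without mutant 4 597, without wild type 3 1799 and without wild type 2 3966. The median of the 10 genes stayed between 1.34 and 1.62 in these 8 fits.

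**Figure D2:**
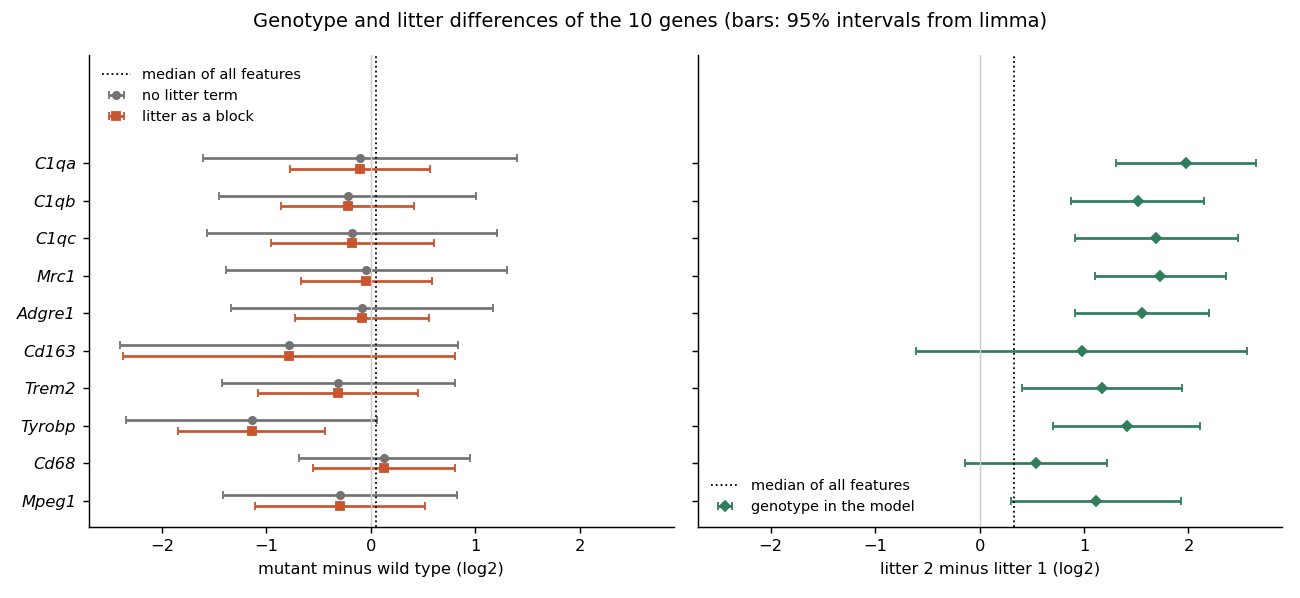
Points are differences on the log2 scale and bars are 95% intervals from limma, for mutant minus wild type on the left (grey without a litter term, red with litter as a block) and litter 2 minus litter 1 on the right. The dotted lines are the medians of all features, 0.05 and 0.32. The genotype interval of Tyrobp with litter as a block, -1.85 to -0.44, is the only one of that kind that leaves out 0.

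The genotype comparison asks whether loss of the Gata2 enhancer alters these macrophage transcripts. None of the 10 genes was past the threshold in limma (0 of 10, and 0 of 10 at an unadjusted p under 0.05), where 0.0447% of all features were called, all of them lower in mutants, and 3.05% had an unadjusted p under 0.05. In 0 of the 10 did all mutants lie below all wild type embryos, against 0.534% of all features. Of the 10 genes, 9 were lower in mutants by any amount, against 47.6% of all features. Their median difference was -0.20, and that of all features 0.05. With litter as a block, limma again called 0 of 10, and 0% of all features, and Tyrobp alone had an unadjusted p under 0.05 (4.86% of all features had one, and 3.76% one with a lower level in mutants). Most of the 10 genes, with the exception of Cd163 and Cd68, ran in parallel over the embryos, so their counts are not independent of each other.

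For the C1q genes the mutant minus wild type differences were small beside the litter differences. C1qa differed by -0.10, with a 95% interval of -0.77 to 0.57 when litter was a block. C1qb differed by -0.22 (-0.86 to 0.42) and C1qc by -0.18 (-0.96 to 0.60). Mrc1 differed by -0.042 (-0.67 to 0.58) and Adgre1 by -0.085 (-0.72 to 0.55), where the second Adgre1 probe gave -0.33. Each of these intervals spans 0 and does not show that the levels were equal. Under median scaling all 5 of these differences were above 0, at 0.16 for C1qa, 0.043 for C1qb, 0.086 for C1qc, 0.22 for Mrc1 and 0.18 for Adgre1, none past the threshold. That scaling moved the genotype median of all features from 0.05 to 0.32.

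Tyrobp had the largest genotype difference of the 10. Its probe crosses an intron, since its 60 bases span 1728 bases of the genome (chr7:31200651-31202378, plus strand, mm9). It is shown because it reads spliced message at the signalling motif of DAP12, the ITAM that recruits the kinase SYK, and the capitals mark where that motif begins.
Tyrobp probe: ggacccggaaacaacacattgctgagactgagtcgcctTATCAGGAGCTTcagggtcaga

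In litter 1, Tyrobp stood at 1.24 and 1.86 in wild type embryos and at -0.21 and 0.82 in mutants. In litter 2 it stood at 2.93 and 2.78 in wild type embryos and at 1.79 and 1.84 in mutants. Both mutants lay below both wild type embryos in each litter, while mutants of litter 2 overlapped wild type embryos of litter 1. Tyrobp was the only one of the 10 with that order in both litters, which 1.89% of all features showed. The within-litter differences were -1.24 and -1.04.

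Across litters Tyrobp was 1.14 below wild type on the log2 scale (difference -1.14, SE 0.55; 2.21-fold), which was not past the threshold in limma (adjusted p = 0.717). With litter as a block the SE was 0.31 and the 95% interval ran from -1.85 to -0.44 (limma adjusted p = 0.560). The authors' deposited table gave -0.88 for its probe, with an adjusted p of 0.624. Its litter difference was 1.41 (SE 0.31; limma adjusted p = 0.0394). That call held in 6 of 18 other settings. Among the settings that lost it were median scaling (0.94, limma adjusted p = 0.161) and quantile normalization (1.66, limma adjusted p = 0.0732). So were the fit with no filter (1.41, limma adjusted p = 0.0503) and the authors' deposited values (0.94, limma adjusted p = 0.198).

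The partner receptor did not show that order. Trem2 differed by -0.31 between genotypes (95% interval with the litter block -1.08 to 0.45), and mutant 2 exceeded both wild type embryos of its litter. Mpeg1 differed by -0.29 (-1.11 to 0.52), Cd68 by 0.13 (-0.55 to 0.81) and the dim Cd163 by -0.79 (-2.37 to 0.80). Leaving out single arrays moved the Cd163 genotype difference between -1.41 and -0.088, and its litter difference between 0.34 and 1.53. For Cd68 the second probe had the opposite sign, -0.43, and for Mpeg1 the second probe gave -0.48.

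Within litter 2, both mutants lay below both wild type embryos for 7 of the 10 genes (C1qa, C1qb, C1qc, Adgre1, Trem2, Tyrobp and Mpeg1), where 4.06% of all features did. The median difference there was -0.28 for the 10 genes and 0.15 for all features. Under median scaling only Tyrobp kept that order (1 of 10, against 6.36% of all features), and likewise in the authors' deposited table, whereas the other normalizations gave 6 or 7 of 10. In litter 1 that order held for 1 of the 10 (Tyrobp), against 25.3% of all features, and the median difference was -0.049 for the 10 genes and -0.037 for all features. A genotype effect that itself differed between litters was past the threshold for 0 of 10 in limma's interaction test (0% of all features, and 1.22% at an unadjusted p under 0.05). The interaction p of the 10 genes was never under 0.05 unadjusted either, the lowest being 0.253 for Cd163.

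Among the embryos, mutant 1 had the lowest level of all 8 for 8 of the 10 genes, and wild type 4 the highest for 6. In litter 1, mutant 2 was the highest for 6 of the 10. The 2 mutants of litter 1 thus stood at opposite ends of their litter for most of these genes.

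Around the median pattern of the 10 genes over the 8 embryos, the closest members were Adgre1 and C1qb, with root mean square differences of 0.10 each on the log2 scale. C1qc followed at 0.19, Trem2 and Mrc1 at 0.22 each, and Mpeg1 and C1qa at 0.27 each. Tyrobp (0.47), Cd68 (0.62) and Cd163 (1.19) departed most. Of 17209 other genes that were well above background on all arrays, the 5 nearest to that pattern were Pld4 (0.17), Csf1r (0.18), Fcrls (0.20), Pou3f3 (0.20) and C3ar1 (0.21), over 8 embryos that share their slides in groups. Pld4 encodes a nuclease of phagocyte endosomes, Fcrls an Fc receptor-like protein of macrophages and microglia, Pou3f3 a transcription factor of brain and kidney, and C3ar1 the receptor for the complement fragment C3a.

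**Figure D3:**
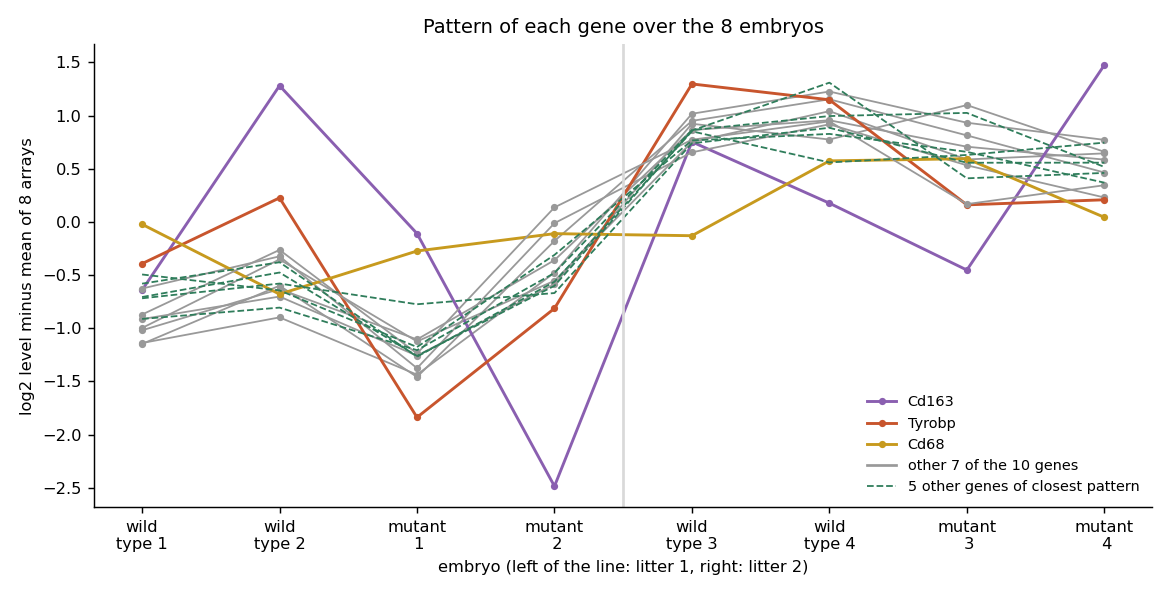
The vertical axis is each gene's log2 level minus its own mean over the 8 embryos, in embryos listed on the horizontal axis with litter 1 left of the line. The lines of 7 of the 10 genes and of the 5 nearest other genes run together and step up between litters, while Cd163 and Cd68 do not follow them and Tyrobp is lowest in mutant 1. The 5 other genes were chosen for nearness to this pattern, so their likeness to it follows from that choice.

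Other genes of complement were tested in the same litter comparison. Of 16 measured genes of the classical pathway and its regulators, 0 were past the threshold for litter in limma in either direction, and their median litter difference was 0.60. C3, the central component, differed by 0.94 (limma adjusted p = 0.0716). C1ra, a protease that C1q activates, differed by 1.08 (limma adjusted p = 0.245), by 0.13 between wild type embryos and 2.04 between mutants. The largest difference of the list was that of C2, at 1.53 (limma adjusted p = 0.0639). Of the 16 genes, 11 were higher and 5 lower in litter 2. C2, C3 and C1ra were picked out with their values already known. The brightest members of that list were C1qbp, a mitochondrial protein that can bind C1q, at -0.78, and Cr1l, a regulator that limits C3 activation, at -0.80. Of 8 complement receptors, 1 was called higher, C3ar1 at 1.37 (limma adjusted p = 0.0215), with a list median of 0.31.

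Of 19 scavenger and uptake receptors, 1 rose, Clec7a, the receptor for fungal beta-glucan, at 1.65 (limma adjusted p = 0.0286). That is near the 4.02% of all features called higher, and their median of 0.38 was close to the 0.32 of all features. Of 15 genes of TREM2 and DAP12 signalling, 0 were past the threshold for litter in limma, with a median of 0.24. The 2 brightest of them, Siglech, a lectin that pairs with DAP12, and Apoe, a lipoprotein that TREM2 binds, differed by 0.10 and 0.67. Lysosome genes had a median of -0.20, with 0 of 11 past the threshold in limma. Their brightest members, Lamp1, a lysosomal membrane protein, and Ctsz, a lysosomal protease, differed by -0.50 and -0.16. The median of the lysosome list was above 0 after quantile normalization, at 0.25.

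Of 25 measured genes of macrophage identity and growth, 19 were higher and 6 lower in litter 2, with a median of 0.63. In limma, 9 of the 25 were past the threshold as higher and 0 as lower. Slc11a1, a metal transporter of phagosomes, was higher by 2.14 (limma adjusted p = 0.0138) and Spi1, which encodes the myeloid factor PU.1, by 1.92 (limma adjusted p = 0.0222), Spi1 being well above background on 5 arrays. Fcgr3, an Fc receptor, was higher by 1.58 and Folr2, a folate receptor of resident macrophages, by 1.55. Csf1r was higher by 1.31 (limma adjusted p = 0.0367). Under median scaling, 1 of the 25 was past the threshold. Of 6 monocyte genes, 3 were higher and 3 lower in litter 2, with a median of 0.015 against 0.32 for all features. Past the threshold was 1 of them, F13a1, the coagulation factor XIII subunit of monocytes and macrophages, higher by 2.12 (limma adjusted p = 0.0168).

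Markers of other cell types moved between the same litters. All 12 pan-endothelial genes were lower in litter 2, by a median of 0.95 (litter difference -0.95), and 4 of them fell past the threshold in limma. These were Cdh5 (-1.44), Esam, a junction adhesion molecule (-1.42), Kdr, a VEGF receptor (-1.40), and Erg, an endothelial transcription factor (-1.24). The summed endothelial signal, in multiples of the 75th percentile, was 494 to 867 in litter 1 and 262 to 481 in litter 2. That of the 10 macrophage genes was 5.71 to 10.02 in litter 1 and 16.1 to 24.1 in litter 2. All 12 endothelial markers were well above background on all arrays. After quantile normalization 9 of the 12 were lower, with a median of -0.38.

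Erythroid genes were higher in litter 2, all 10 of them, with 5 past the threshold in limma and a median of 1.77. Alas2, the heme synthesis enzyme of red cells, was higher by 3.18, the embryonic globin genes Hba-x and Hbb-bh1 by 3.06 and 2.75, and Slc4a1, the red cell anion exchanger, by 2.34. Their summed signal was 329 to 725 in litter 1 and 1037 to 2018 in litter 2. Under median scaling, quantile normalization and normexp, all 10 stayed higher, and 5 to 7 of them were past the threshold. Of 7 lymphatic and sinusoidal genes, 3 were higher and 4 lower, with a median of -0.37, and 1 was past the threshold in limma, Reln, an extracellular glycoprotein, at 1.22. Under median scaling, quantile normalization, normexp or no filter, 0 of the 7 were called higher, and 1 was called lower under median scaling. The part of these cell types in the litter difference of the macrophage genes was not tested.

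**Figure D4:**
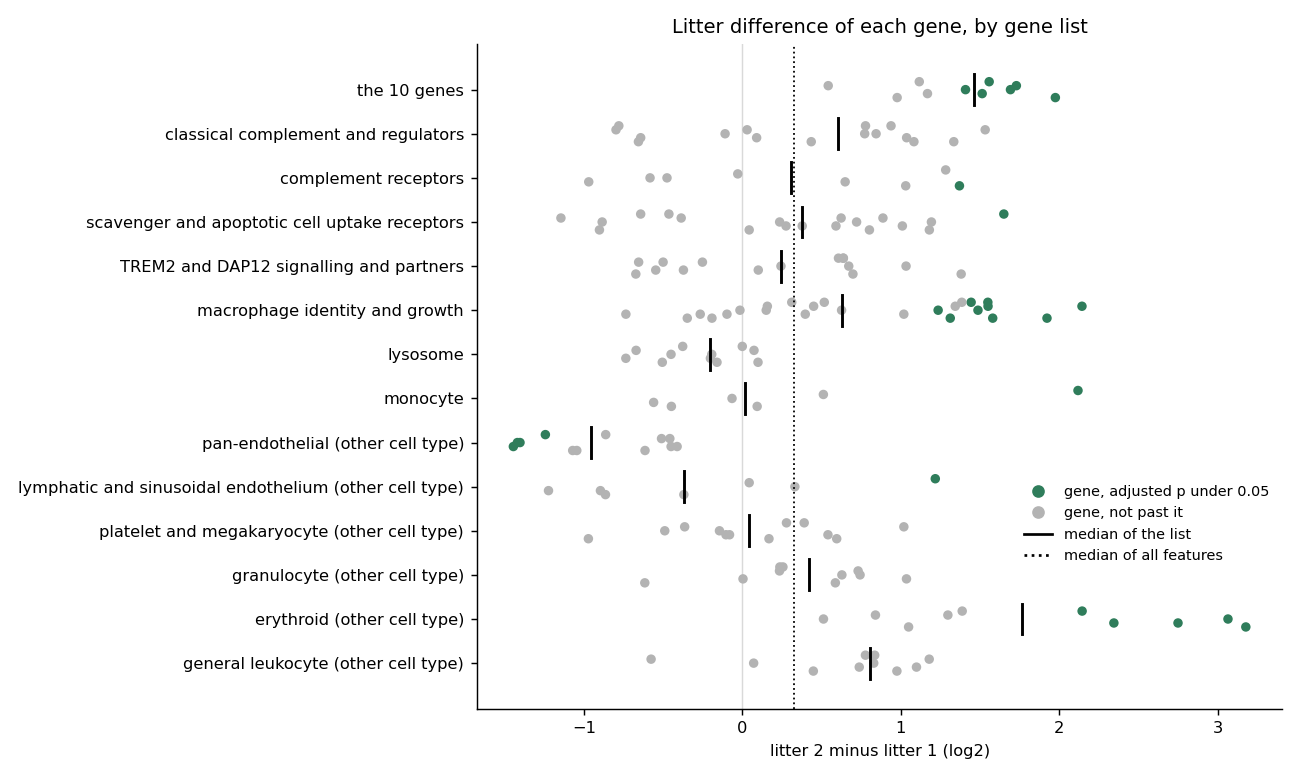
Each point is 1 gene, placed by its litter 2 minus litter 1 difference on the log2 scale, with gene lists as rows, green points past the adjusted threshold, a bar at the list median and a dotted line at the median of all features (0.32). The 10 genes (median 1.46) and the erythroid list (1.77) lie furthest to the right and the pan-endothelial list (-0.95) furthest to the left.

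Between genotypes, other blood cell lists moved while the macrophage genes did not pass the threshold. Of 12 platelet and megakaryocyte genes all were lower in mutants, with a median of -2.65, and 3 fell past the threshold in limma. They were Treml1, a receptor of platelet granules (-3.70), and Gp9 (-3.49) and Gp1ba (-2.80), subunits of the von Willebrand factor receptor. Their summed signal was 56.4 to 113 in wild type embryos and at most 22.4 in mutants. Of 10 granulocyte genes, 3 fell in limma: S100a9 (-4.93) and S100a8 (-3.98), the calprotectin subunits, and Mpo (-4.88), the myeloperoxidase gene. S100a8 was well above background on 7 arrays, and 7 of the 10 genes were so on all 8. The summed signal of the 10 granulocyte genes was 10.9 to 17.3 in wild type embryos and 2.16 to 3.69 in mutants. With litter as a block, none of the 6 platelet and granulocyte genes named here was past the threshold in limma. Treml1 and S100a9 came closest at a limma adjusted p of 0.0531. The summed signal of the 10 macrophage genes, 8.24 to 24.1 in wild type embryos and 5.71 to 18.1 in mutants, overlapped between genotypes over both litters. These ranges include the litter difference. Within litter 1 the genotypes also overlapped, since mutant 2 (9.54) stood above wild type 1 (8.24). Within litter 2 they did not overlap, with 22.05 and 24.1 in wild type embryos and 18.1 and 16.1 in mutants. The sum adds linear signals, and the Tyrobp probe gave the highest signal of the 10 in wild type 3 and 4. On the log2 scale Tyrobp stood at 2.93 and 2.78 there, and at 1.79 and 1.84 in mutants 3 and 4. The sum alone thus does not show a separation shared by the 10 genes.

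General leukocyte genes had a median genotype difference of -1.25, with 0 of 10 past the threshold in limma. Between litters their median was 0.80, with 9 of 10 higher and 0 past the threshold in limma. Ptprc differed by -0.96 (limma adjusted p = 0.717) and was lower in mutants within both litters. Lcp1, an actin-bundling protein, differed by 0.33, and Coro1a, an actin regulator of leukocytes, by -0.78. The medians were -0.35 for macrophage identity, -0.34 for TREM2 and DAP12 signalling, -0.77 for monocyte genes and -0.10 for scavenger receptors, with 0 genes of each past the threshold in limma. Fcer1g, the Fc receptor gamma chain and an ITAM adaptor like DAP12, was also picked with its values known. It differed by -1.03 (limma adjusted p = 0.717), and by -1.03 in both litter 1 and litter 2. Of the 15 genes of TREM2 and DAP12 signalling, its list, 11 were lower and 4 higher in mutants. Siglech, which pairs with DAP12, was among those higher, at 0.33 (limma adjusted p = 0.717). The part of granulocytes and platelets in the Tyrobp difference was not tested.

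Promoters of 7 of the 10 genes were found in the RefSeq table (GRCm38.p6), as the 250 bases before the start of each gene. GAGGAA, the core of PU.1 sites, was searched on both strands, where it also reads TTCCTC. It occurred in 5 of the 7 (C1qb, C1qc, Mrc1, Trem2 and Cd68) and in 23.3% of all 32851 promoters of the table. The motif AGATAA, which GATA factors bind, was searched likewise and occurred in 1 of the 7, Mpeg1, and in 9.99% of all promoters. The windows of C1qb and C1qc are shown as neighbours that moved together by litter, and that of Mpeg1 for its 2 matches to AGATAA, with the letters of both motifs in capitals. A match describes letters and not a bound site. C1qb is at chr4:136886201-136886450 (minus strand), C1qc at chr4:136892915-136893164 (minus strand) and Mpeg1 at chr19:12460520-12460769 (plus strand).
C1qb promoter: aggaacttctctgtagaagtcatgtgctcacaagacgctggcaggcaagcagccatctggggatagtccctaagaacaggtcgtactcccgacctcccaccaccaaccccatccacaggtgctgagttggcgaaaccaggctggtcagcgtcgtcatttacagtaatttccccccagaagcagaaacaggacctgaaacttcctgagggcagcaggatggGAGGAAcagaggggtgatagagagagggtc
C1qc promoter: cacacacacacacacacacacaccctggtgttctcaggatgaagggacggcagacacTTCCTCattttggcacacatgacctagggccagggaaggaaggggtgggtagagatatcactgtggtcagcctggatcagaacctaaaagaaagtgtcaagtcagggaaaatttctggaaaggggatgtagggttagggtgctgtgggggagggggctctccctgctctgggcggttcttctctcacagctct
Mpeg1 promoter: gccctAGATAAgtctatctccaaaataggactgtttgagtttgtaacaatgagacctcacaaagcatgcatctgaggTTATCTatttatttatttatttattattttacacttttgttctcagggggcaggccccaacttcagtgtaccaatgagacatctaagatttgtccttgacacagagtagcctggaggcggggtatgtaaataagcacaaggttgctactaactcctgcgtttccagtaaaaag

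The processing choices moved both the number of called genes and the size of the difference. Over 18 other settings of the litter test, the median of the 10 genes exceeded that of all features by 1.00 to 1.48, while between 0 and 7 genes were called. In 20 other settings of the genotype test the median of the 10 genes lay between -0.56 and 0.066 around that of all features, and 0 genes were called in limma in each.

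**Figure D5:**
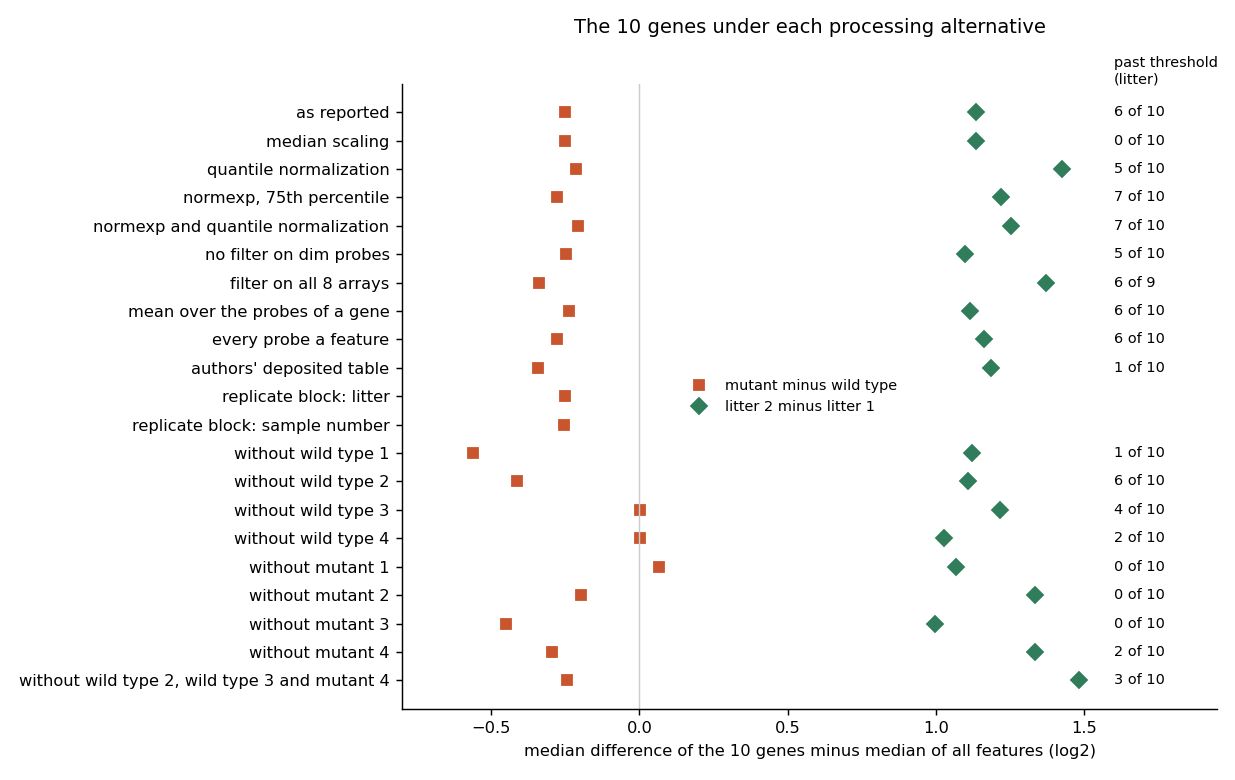
Each row is a processing setting, and the horizontal axis is the median log2 difference of the 10 genes minus that of all features, for mutant minus wild type (squares) and litter 2 minus litter 1 (diamonds). The numbers at the right count the genes past the litter threshold. The diamonds stay between 1.00 and 1.48 and the squares between -0.56 and 0.066.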

How the data were processed

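Spot intensity on a linear scale is what the deposited scanner files hold. Per the file headers, the scanner software was Agilent Feature Extraction 10.7.3.1 with the mm9 annotation, with no normalization between arrays. The authors' deposited table gives log2 values per sample and their log2 fold change, p-value and adjusted p-value, which the submitters' processing notes credit to limma. Its score columns (the limma t and B) are the authors' own and were not used here.

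The processed intensity was put on the log2 scale and the 75th percentile of the non-control spots was subtracted within each array. Control spots and 130 to 521 outlier spots per array were dropped, and repeat spots averaged (55681 probes). A probe was kept if at least 4 of 8 arrays showed it well above background (48121), and the brightest was used for each symbol. Of the probes, 26762 were named by accession, 4458 by symbol or synonym and 2044 by the file's name, and 22417 had no name. This gave 40235 features, 709 of them with a missing spot that the fit left out.

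All tests used limma 3.58.1 under R 4.3.3 (moderated linear models, two-sided), with p-values adjusted by Benjamini-Hochberg across every feature and a threshold of 0.05. The genotype model had no covariate, the litter model had genotype, and the interaction model had both. The labels give litter, which both genotypes share, so litter as a block is given as well. The method was tested on simulated data. The labels say each embryo gave its own RNA sample.

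The 10 genes, the lists and the tests were chosen with earlier results of these data known. The naming rule took all 10 genes, from each list the called genes (4 at most) or else the 2 brightest, the 5 genes of nearest pattern, and Csf1r, Ptprc and Pecam1. Listed genes that did not enter the tests include C1s, C4a, C5, Vsig4, Timd4, Gpnmb, Ly6c2, Chil3 and Ccl21a. Protein sequences were not used here. Alternatives covered scaling, background correction, filter, probe choice, the authors' values, blocks and left-out arrays.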

Additional observations from a re-analysis of the deposited data

Results flagged for a closer look

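Mpeg1 in mutant 1 was set apart from the other mutants. Its level was -0.89, against 0.48 to 0.69 in mutants 2 to 4, a gap of 0.868 of the group's range, past Dixon's 95% critical value for 4 samples. Of 20 groups of 4 examined (10 genes in 2 genotypes) it was the only one so marked, and chance marks about 1 in 20. The dimmer second probe of Mpeg1 did not set mutant 1 apart, with -3.45 there and -4.05 to -2.35 in mutants 2 to 4.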

How the results depend on the processing

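The litter difference of the 10 genes kept its direction in each setting, except for Cd163 after normexp and quantile normalization (-0.015). Their litter median was 1.46, and 0.99 under median scaling and in the authors' deposited table. The number past the threshold was 6, then 0 under median scaling, 1 from the authors' deposited values, 3 without wild type 2, wild type 3 and mutant 4, and 0 to 6 without single arrays. Over all features, litter calls numbered 1976 (1616 higher, 360 lower). They were 1012 (452 higher, 560 lower) under median scaling, 795 (441 and 354) after quantile normalization, 1170 (634 and 536) after normexp, 1331 (695 and 636) after normexp and quantile normalization, 1531 (685 and 846) from the authors' deposited values, 1569 (1093 and 476) with the filter on all 8 arrays, 5782 (3316 and 2466) without the 3 arrays, and 4 to 3966 without single arrays. The causes were not tested.

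Genotype signs near 0 turned with the scaling. Under median scaling the differences were 0.16 for C1qa, 0.043 for C1qb, 0.086 for C1qc, 0.22 for Mrc1 and 0.18 for Adgre1, and the authors' deposited values gave 0.16, 0.043, 0.082, 0.22 and 0.18. Adgre1 was 0.096 after quantile normalization and 0.058 after normexp and quantile normalization. Cd68 was -0.062 and -0.036 there, -0.15 as a mean over its probes and -0.21 without the 3 arrays. Without single arrays the ranges were -0.50 to 0.36 for C1qa, -0.59 to 0.12 for C1qb, -0.59 to 0.28 for C1qc, -0.42 to 0.37 for Mrc1, -0.44 to 0.27 for Adgre1, -0.57 to 0.095 for Trem2, -0.077 to 0.34 for Cd68, -0.63 to 0.070 for Mpeg1 and -1.41 to -0.088 for Cd163. Tyrobp stayed between -1.46 and -0.72 in the 20 settings.

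Genotype calls over all features numbered 18, then 1 after quantile normalization, 39 after normexp, 5 after normexp and quantile normalization, 8 without a filter, 27 with the filter on all 8 arrays, 52 from the authors' deposited values (4 for the interaction), and 0 to 24 without single arrays. In limma, the litter replicate block gave 0 (1954 at an unadjusted p under 0.05), the replicate block by sample number 0 (1385), and the fit without the 3 arrays 0 (2206). Same-numbered samples correlated at 0.62, -0.029, -0.095 and -0.16 in their deviations over all features. Wild type 1 to 4 correlated at 0.54, -0.076, 0.74 and 0.59 with the other mutant of their litter. These values showed no pairing by number beyond litter, but they cannot exclude one, since shifts of whole arrays enter them. Dim signal limits Cd163, which the filter on all 8 arrays removes.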
